A study of Mus musculus with 2 samples.

Results

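The 9 transcription factors Pax6, Trp63, Sox9, Elf3, Ehf, Foxc1, Dmrta2, Grhl3 and Ovol1, known from the corneal surface or its development, were followed across the cell layers of the mouse cornea. They were selected by symbol, and all 9 were found among the 27998 genes of the count matrices. The cells came from the cornea and limbal rim of 2 female C57BL/6 littermates of 28 days, profiled by 10x Genomics droplet sequencing, which counts each captured transcript once by a unique molecular identifier (UMI). One animal was wild type and the other carried a Beclin1 +/- genotype, with a normal and a mutant copy of Becn1, the gene for an autophagy protein. The study asked how autophagy affects the limbal and corneal epithelial progenitors. The labels name no other allele and no treatment, and do not describe the Becn1 mutation. Most of the conjunctiva had been dissected away before the tissue was digested with collagenase and then trypsin. With 1 library per genotype, genotype, animal and preparation cannot be told apart, no difference has a replicate check, and no test was made. All intervals are 95% intervals for counting error.

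Each layer was a gate on marker genes in CPM, the UMIs of a gene in a cell scaled to a total of 1000000. Limbal cells had at least 500 CPM of Gpha2 and at least 2000 CPM of Krt14. Basal cells had at least 2000 CPM of Krt14 with at least 8000 CPM of Krt12, the corneal keratin, and wing cells, which lie above them, had at least 20000 CPM of Krt12 and less than 2000 CPM of Krt14. Surface cells had at least 1000 CPM of Lce3a, and stromal cells at least 5000 CPM of Dcn. The gates held 232 limbal, 857 basal, 521 wing, 53 surface and 557 stromal cells of 2462 wild-type cells. In the heterozygote they held 366, 1551, 978, 117 and 1333 of 4942 cells. A cell could pass more than 1 gate, and 45 wild-type and 102 heterozygote limbal cells were also basal cells.

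The corneal epithelium is renewed from the limbus at its rim. Basal cells divide, lose contact with the basement membrane and move up through wing cells to the flat surface cells, which carry the barrier against tears and microbes. PAX6 is the master regulator of eye development and maintains corneal identity in the adult epithelium, including the expression of Krt12. The p63 protein, encoded by Trp63, sustains the proliferative basal layer of stratified epithelia, and SOX9 is known from limbal and other epithelial progenitors. ELF3 and EHF are ETS-family factors of epithelial differentiation, GRHL3 drives barrier genes, and OVOL1 is a zinc-finger repressor linked to the exit of epithelial cells from proliferation. FOXC1 is a forkhead factor of the neural crest that forms the corneal stroma and endothelium, and DMRTA2 is a doublesex-related factor known mainly from the developing forebrain.

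Promoter sequences are shown for Pax6, Dmrta2 and Elf3, which are among the factors that differed between layers or libraries as described below. Foxc1, Grhl3 and Ovol1 also differed between layers, and no promoter sequence was found for Ovol1. RefSeq windows of 300 bases on build GRCm38.p6, from 250 bases before the start site to 50 bases within the transcript, were found for 5 of the 9 genes, 6 windows in all. Pax6, on the plus strand, had a window at each of 2 start sites, at chr2:105668646-105668945 and chr2:105682213-105682512. The Dmrta2 window lies at chr4:109977775-109978074 on the plus strand and that of Elf3 at chr1:135258423-135258722 on the minus strand. They are written 5′ to 3′, with capitals for the letters CCAAT and TGACGTCA on either strand.
Pax6, first start: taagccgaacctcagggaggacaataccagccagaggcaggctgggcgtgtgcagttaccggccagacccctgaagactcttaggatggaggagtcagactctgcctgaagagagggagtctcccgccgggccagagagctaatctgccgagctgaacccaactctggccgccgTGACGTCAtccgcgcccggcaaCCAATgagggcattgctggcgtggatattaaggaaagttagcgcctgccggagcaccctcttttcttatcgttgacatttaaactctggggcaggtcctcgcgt
Pax6, second start: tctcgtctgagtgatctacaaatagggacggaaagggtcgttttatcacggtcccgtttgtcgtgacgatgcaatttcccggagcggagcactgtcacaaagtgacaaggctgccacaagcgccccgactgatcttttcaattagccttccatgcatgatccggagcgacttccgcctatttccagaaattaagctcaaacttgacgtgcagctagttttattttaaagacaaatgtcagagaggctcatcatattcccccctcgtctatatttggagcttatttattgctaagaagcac
Dmrta2: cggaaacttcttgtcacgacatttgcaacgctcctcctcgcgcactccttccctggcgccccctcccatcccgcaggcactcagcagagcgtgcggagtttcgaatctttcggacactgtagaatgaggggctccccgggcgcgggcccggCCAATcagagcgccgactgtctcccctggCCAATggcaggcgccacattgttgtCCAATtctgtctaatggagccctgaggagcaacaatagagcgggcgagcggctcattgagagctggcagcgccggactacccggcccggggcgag
Elf3: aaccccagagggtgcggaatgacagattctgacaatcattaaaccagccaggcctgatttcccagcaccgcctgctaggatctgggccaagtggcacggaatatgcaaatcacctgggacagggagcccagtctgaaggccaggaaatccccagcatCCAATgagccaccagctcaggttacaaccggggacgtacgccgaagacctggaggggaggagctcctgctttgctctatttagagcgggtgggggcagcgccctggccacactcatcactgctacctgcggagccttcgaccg
CCAAT, the letters of a common promoter element, was present in the first Pax6 window at -54 from the start site and in the Elf3 window at -93. The Dmrta2 window held CCAAT 3 times, at -99, -70 and -45. It was also present in the windows of Foxc1 and Grhl3, and in 37.4% of all 32851 promoter windows. TGACGTCA, the letters of the cyclic AMP response element, was present in the first Pax6 window at -76 and in 1.79% of all windows. Neither TGANTCA, the letters bound by AP-1 factors, nor TATAAA was present in any of the 6 windows on either strand, against 7.81% and 13.6% of all windows. The motifs do not overlap one another where they were found, and a match describes letters only.

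The genes lie on mouse build mm10, with positions from GENCODE on the same assembly. Pax6 (ENSMUSG00000027168) spans chr2:105668900-105697364 on the plus strand, Trp63 (ENSMUSG00000022510) chr16:25683763-25892102 on the plus strand and Sox9 (ENSMUSG00000000567) chr11:112782224-112787760 on the plus strand. Elf3 (ENSMUSG00000003051) spans chr1:135253575-135258568 on the minus strand, Ehf (ENSMUSG00000012350) chr2:103263433-103303278 on the minus strand and Foxc1 (ENSMUSG00000050295) chr13:31806633-31812476 on the plus strand. Dmrta2 (ENSMUSG00000047143) spans chr4:109978053-109983687 on the plus strand, Grhl3 (ENSMUSG00000037188) chr4:135541888-135573630 on the minus strand and Ovol1 (ENSMUSG00000024922) chr19:5549136-5560646 on the minus strand. Pax6, Elf3, Ovol1 and Trp63 overlap annotated transcripts of the other strand, among them Pax6os1 at Pax6, and Trp63 also overlaps Gm27005 on its own strand. Whether the counting used strand is not given in the sources used here. Pax6os1 itself reached at most 3.38 CPM in any layer.

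The libraries held 54913980 UMIs in 2513 barcodes (wild type) and 74363359 UMIs in 5155 barcodes (heterozygote), and shared 15 barcodes. Median depth per cell in the gates ran from 11693 UMIs in stromal to 29704 UMIs in surface cells of the wild-type library, and from 8165 to 19915 UMIs in the same gates of the heterozygous library. The gates carried markers that did not define them. Limbal cells had 5097 and 4022 CPM of Krt15 (wild type and heterozygote, the order used throughout) against 843 and 943 CPM in basal and 1671 and 2431 CPM in wing cells. Surface cells had 36813 and 32787 CPM of Psca, and stromal cells had 4914 and 4976 CPM of Lum. Other limbal markers were not limited to limbal cells. Cd63 was at 331 and 346 CPM in limbal but at 3796 and 3789 CPM in stromal cells, and Ifitm3 at 1246 and 1474 against 1049 and 1327 CPM. Limbal cells also held conjunctival transcripts, with 954 and 465 CPM summed over Krt4, Krt13, Krt19, Krt8 and Muc5ac, none of them at 0, against 142 and 182 CPM in basal cells. The same sum was 900 and 843 CPM in wing cells and 2180 and 2268 CPM in surface cells, so it was not particular to limbal cells. Krt13 in it was at 257 and 116 CPM in limbal cells but at 704 and 592 CPM in wing cells. Becn1 was at 46.1 and 46.9 CPM in wing cells and at 39.7 and 39.6 CPM in basal cells. A count of 3′ tags may include transcripts of the mutant copy, so these levels do not check the genotype.

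**Figure D1:**
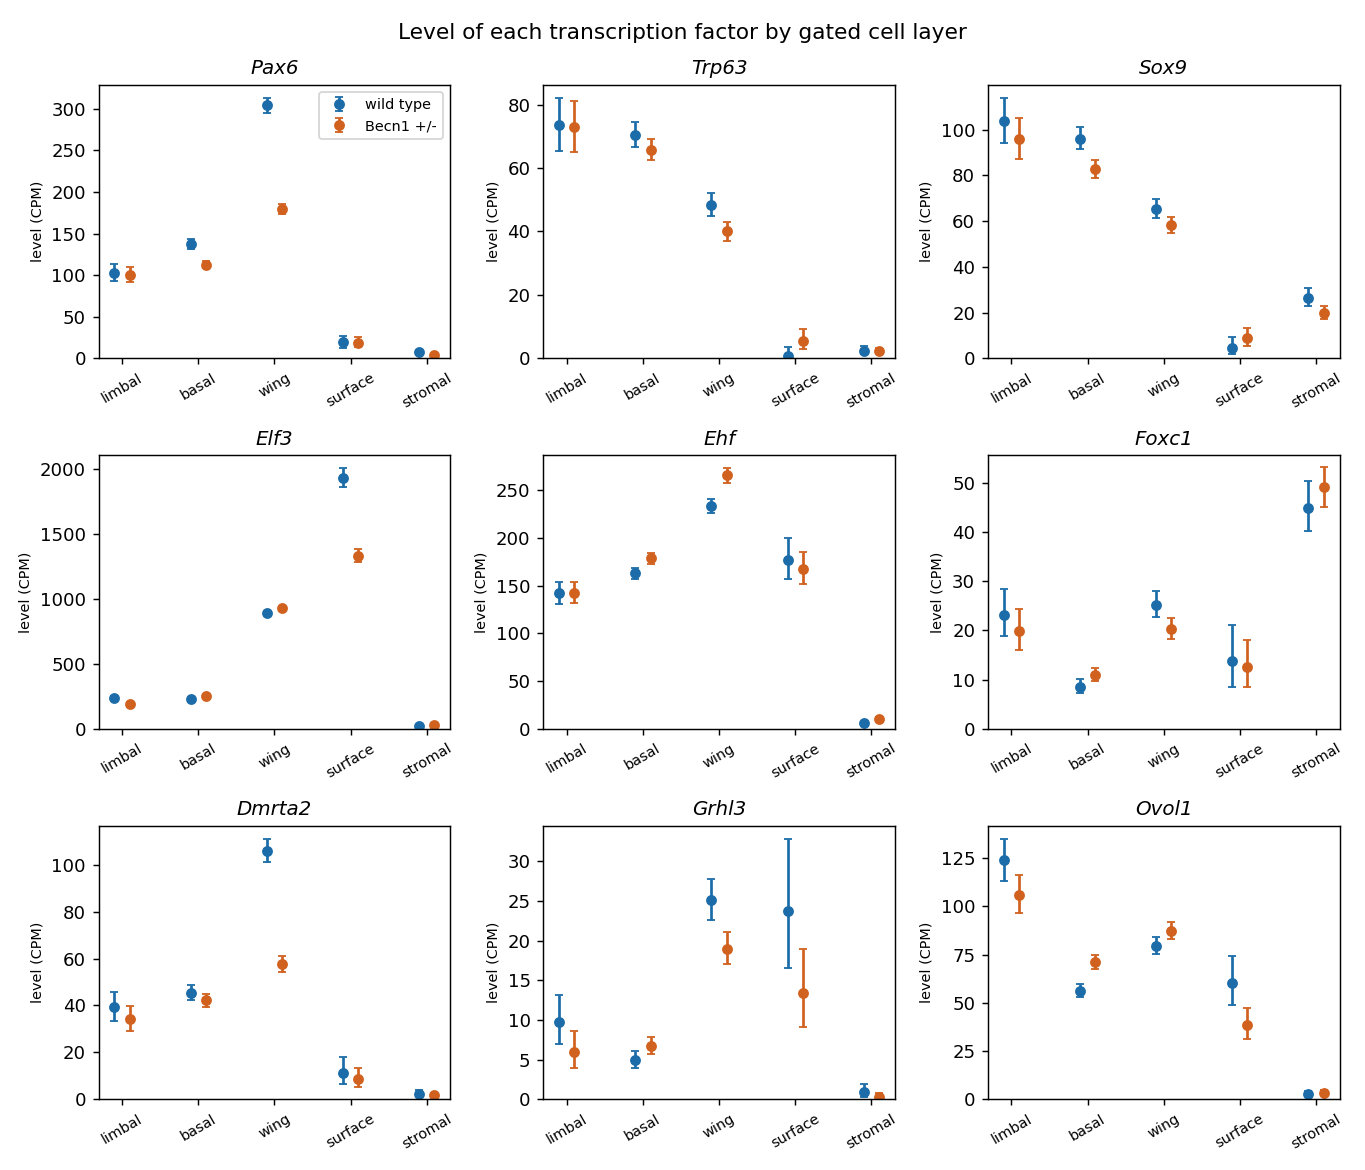
Level of each factor (CPM of summed counts, vertical axis from 0, own scale per gene) in 5 gated layers (horizontal axis) of the wild-type (blue) and heterozygote (orange) library, with 95% Poisson intervals. Pax6 and Dmrta2 are highest in wing cells, Elf3 in surface cells, Trp63 and Sox9 in limbal and basal cells, and Foxc1 in stromal cells, where trimmed mean scaling puts surface Foxc1 of the wild type level with it.

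Trp63, the keeper of the basal layer, was highest in limbal and basal cells, lower in wing cells and near 0 at the surface. Wild-type levels were 73.5 CPM in limbal, 70.5 in basal, 48.3 in wing, 0.657 in surface and 2.34 in stromal cells. Heterozygote levels were 72.8, 65.8, 40, 5.45 and 2.35 CPM in the same order of layers. Limbal and basal levels overlapped within their intervals in both libraries. Wing over basal cells, the log2 ratio was -0.55 (interval -0.68 to -0.41) in wild-type cells and -0.72 (-0.85 to -0.59) in heterozygous cells. Krt14, a keratin of the basal layer, divides these 2 gates, so the Trp63 ratio is not independent of the gating. The surface value of the wild-type library rests on 1 UMI in 53 cells, and its log2 ratio to basal cells was -6.17 (-12.05 to -4.27). In the heterozygote 13 UMIs in 117 surface cells gave -3.54 (-4.51 to -2.82). With no barcodes removed as doublets, these ratios were -2.59 and -3.18.

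Sox9, a progenitor factor, followed the same order within the epithelium and was also present in the stroma. Its wild-type levels were 104 CPM in limbal, 96.0 in basal, 65.3 in wing, 4.60 in surface and 26.5 in stromal cells. The heterozygote had 95.8, 82.7, 58.2, 8.80 and 19.9 CPM. Limbal and basal intervals overlapped in wild-type cells, and the limbal level was slightly higher in heterozygous cells, at a log2 ratio of 0.24 (0.08 to 0.39). Wing over basal ratios were -0.56 (-0.67 to -0.44) and -0.51 (-0.62 to -0.40). Across cells ordered by Krt14, as described below, Sox9 stayed between 76.9 and 103 CPM in wild-type cells over 6 of 7 Krt14 ranges and was at 38.8 CPM in the lowest.

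Pax6, the regulator of corneal identity, was highest in wing cells in both libraries. Wild-type levels were 102 CPM in limbal, 137 in basal, 304 in wing, 19.1 in surface and 7.17 in stromal cells. Heterozygote levels were 100, 112, 180, 18.9 and 4.17 CPM. Wing cells exceeded basal cells by a log2 ratio of 1.14 (1.07 to 1.22) in wild-type cells and 0.68 (0.60 to 0.76) in heterozygous cells, and the limbal level lay below that of basal cells outside the limbal gate in wild-type cells at -0.41 (-0.57 to -0.26), but not beyond counting error in heterozygous cells at -0.13 (-0.28 to 0.01). At least 1 Pax6 UMI was found in 81.4% (77.8 to 84.6) of wild-type and 67.9% (64.9 to 70.8) of heterozygote wing cells. With every cell thinned to 5000 UMIs the shares were 53.9% and 42.1%, against 2.69% and 1.88% of thinned stromal cells. In surface cells Pax6 was lower than in wing cells by log2 ratios of -3.99 (-4.59 to -3.49) and -3.24 (-3.72 to -2.84).

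Dmrta2 had the same order of layers as Pax6, wing over basal and limbal over surface over stromal cells. Its wild-type levels were 39.4 CPM in limbal, 45.5 in basal, 106 in wing, 11.2 in surface and 2.49 in stromal cells. In the heterozygote they were 34.1, 42.2, 57.6, 8.80 and 1.74 CPM. The wing over basal ratio was 1.22 (1.09 to 1.34) on the log2 scale in wild-type cells and 0.45 (0.32 to 0.58) in heterozygous cells. Limbal and basal levels overlapped within their intervals in both libraries. Over basal cells outside the limbal gate, the limbal log2 ratio was -0.21 (-0.46 to 0.04) in wild-type cells. In heterozygous cells it was -0.29 (-0.55 to -0.05), beyond counting error.

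Elf3, an ETS factor of differentiation, was higher in each step from basal to wing to surface cells. Wild-type levels were 235 CPM in limbal, 233 in basal, 892 in wing, 1933 in surface and 20.5 in stromal cells. The heterozygote had 190.0, 254, 927, 1333 and 33.3 CPM. Wing over basal, the log2 ratio was 1.94 (1.89 to 1.99) in wild-type cells and 1.87 (1.82 to 1.91) in heterozygous cells. Surface over wing it was 1.15 (1.10 to 1.21) and 0.55 (0.49 to 0.60), and 2.63 and 1.92 with the scaling described below. All 53 and all 117 surface cells had an Elf3 UMI.

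Ehf, the related ETS factor, varied far less within the epithelium. It was at 142 CPM in limbal, 163 in basal, 233 in wing, 177 in surface and 5.71 in stromal cells of the wild-type library, and at 142, 179, 266, 168 and 10.3 CPM in heterozygous cells. Wing over basal ratios were 0.52 (0.45 to 0.59) and 0.57 (0.51 to 0.63) on the log2 scale. Surface and basal intervals overlapped in both libraries.

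Grhl3, the barrier factor, had low counts, with 85 and 149 UMIs over all basal cells. Levels in wild-type cells were 9.72 CPM in limbal, 4.97 in basal, 25.1 in wing, 23.7 in surface and 0.878 in stromal cells. The heterozygote had 5.91, 6.72, 19.0, 13.4 and 0.261 CPM. Wing cells were above basal cells in both libraries, at log2 ratios of 2.33 (1.99 to 2.69) and 1.49 (1.22 to 1.78), and wing and surface intervals overlapped in both.

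Ovol1, the repressor linked to differentiation, was highest in limbal cells on the CPM scale. Its wild-type levels were 124 CPM in limbal, 56.4 in basal, 79.6 in wing, 60.5 in surface and 2.64 in stromal cells. In the heterozygote they were 106, 71.1, 87.3, 38.6 and 3.48 CPM. Limbal over basal, the log2 ratio was 1.14 (0.98 to 1.29) in wild-type cells and 0.59 (0.44 to 0.74) in heterozygous cells. The latter is just past 1.5-fold, and it lay between 0.44 and 0.73 over the alternative settings, on either side of that limit. The order of limbal and surface cells depended on the scaling. With scaling by trimmed mean of M values (TMM), described below, Ovol1 over basal cells was at 1.04 and 0.50 in limbal and at 1.46 and 0.55 in surface cells.

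Foxc1, the neural crest factor, was highest in the stroma on the CPM scale and was not limited to it. It was at 44.9 CPM in stromal cells of the wild-type library and 49.0 CPM in those of the heterozygous library. Among epithelial layers of the wild-type library it was at 23.2 CPM in limbal, 8.60 in basal, 25.2 in wing and 13.8 in surface cells, and in heterozygous cells at 19.9, 11, 20.3 and 12.6 CPM. Basal cells were thus the layer of lowest Foxc1 in both libraries, although the surface interval, from 21 and 30 UMIs, reached the basal one. The log2 ratio to basal cells was 1.42 (1.03 to 1.80) and 0.93 (0.56 to 1.29) for limbal cells and 1.55 (1.27 to 1.84) and 0.89 (0.65 to 1.13) for wing cells. With TMM scaling it was 2.06 and 1.92 for stromal cells and 2.06 and 1.65 for surface cells.

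Stromal cells, which should lack epithelial transcripts, were used to gauge free RNA in the droplets. Comparing stromal cells outside the epithelial gates with epithelial cells outside the stromal gate, Krt12, Krt5, Krt14, Upk1b, Psca, Perp, Dsp and Epcam had in the stroma between 2.93% and 4.73% of their pooled epithelial level in wild-type cells and between 3.78% and 6.14% in heterozygous cells. The stromal levels of Pax6 (1.89% and 2.91%), Dmrta2 (1.74% and 3.64%), Trp63 (3.77% and 3.81%), Ehf (2.51% and 4.49%), Ovol1 (2.82% and 4.12%) and Elf3 (3.50% and 5.63%) lay within or below these ranges and could not be told apart from background. Epcam alone set the upper ends, and the next genes were Upk1b at 3.40% in wild-type and Krt14 at 5.54% in heterozygous cells. Wild-type Trp63 and Elf3 and heterozygote Elf3 lay above those values. Grhl3, with 6 and 3 stromal UMIs, was at 6.24% (2.28 to 13.7) and 2.21% (0.454 to 6.49). Sox9 was at 32.1% (27.4 to 37.4) and 28.1% (24.4 to 32.2) of its epithelial level, and Foxc1 at 261% (227 to 299) and 319% (285 to 357), both above the background genes. A Sox9 UMI was found in 13.8% and 9.83% of stromal cells at median depths of 11693 and 8165 UMIs, and a Foxc1 UMI in 33.9% and 28.1%.

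The factors were counted at a 1.5-fold difference if the mean of both sums reached 20 CPM, which left Foxc1 and Grhl3 out of the limbal and wing counts. Limbal over basal, Ovol1 alone of 7 factors was higher in each library and none was lower. Of all genes 10.3% were higher and 8.93% lower (19.2% in all) in wild-type cells, and 8.6% and 7.55% (16.1% in all) in heterozygous cells. Wing over basal, 3 of 7 were higher and none lower in wild-type cells (Pax6, Elf3, Dmrta2), beside 17.3% of genes higher and 13.8% lower (31.1% in all). In the heterozygote 2 of 7 were higher (Pax6, Elf3) and 1 lower (Trp63), beside 16.6% and 16.4% (33.0% in all). Stromal over basal, 1 of 8 was higher (Foxc1) and 7 lower in each library. Of all genes 33.0% were higher and 27.0% lower (60.1% in all) in stromal cells of the wild-type library and 32.5% and 26.4% (58.9% in all) in those of the heterozygous library.

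Most genes were lower in surface sums, and the median of all genes, surface over basal, was -1.36 and -1.35 on the log2 scale. At that scale 1 of 7 factors was higher (Elf3) and 4 lower in wild-type cells, beside 21.9% of genes higher and 63.4% lower (85.3% in all). In the heterozygote 1 was higher and 5 lower, beside 20.0% and 64.3% (84.4% in all). Surface over wing, 1 of 8 factors was higher (Elf3) and 4 lower in wild-type cells, beside 18.4% and 65.9% (84.3% in all). None of 7 was higher and 6 were lower in heterozygous cells, beside 16.7% and 66.7% (83.3% in all). TMM scaling shifted the surface over basal ratios by 1.36 and 1.43 and the surface over wing ratios by 1.48 and 1.38. After that shift Pax6 was still lower in surface than in basal cells, at -1.47 and -1.13, as were Trp63 (-4.81 and -2.11), Sox9 (-2.93 and -1.77) and Dmrta2 (-0.63 and -0.80). Elf3 stood at 4.41 and 3.83, Grhl3 at 3.62 and 2.47, Foxc1 at 2.06 and 1.65 and Ehf at 1.48 and 1.34, while Ovol1 moved from 0.10 to 1.46 in wild-type cells and changed sign in heterozygous cells, from -0.88 to 0.55. Surface over wing, TMM scaling also turned the sign in both libraries for Ehf (1.08 and 0.72), Foxc1 (0.62 and 0.70), Grhl3 (1.43 and 0.90) and Ovol1 (1.08 and 0.21). TMM scaling shifted wing over basal ratios by -0.12 and 0.05, and with it 5 of 7 factors passed the fold in wild-type cells, Trp63 (-0.66) and Sox9 (-0.67) being added.

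A finer order within the corneal epithelium was obtained by grouping cells by Krt14, the keratin that is lost as cells leave the basal layer. All cells with at least 8000 CPM of Krt12 that lay outside the surface and stromal gates were placed in 7 ranges of Krt14. Pax6 was highest not at either end but at an intermediate Krt14. In the wild type it was at 66.6 CPM in cells with at least 8000 CPM of Krt14, then 109, 217, 316 and 344 CPM, the last in cells with 500 to 1000 CPM of Krt14, and then 268 and 171 CPM in the lowest ranges. Heterozygote levels along the same ranges were 79.3, 86.8, 151, 190, 212, 162 and 98.0 CPM. The highest level fell in the same range in both libraries. Its interval overlapped that of the range at 1000 to 2000 CPM of Krt14, at 328 to 361 against 303 to 330 CPM in wild-type cells. In heterozygous cells the intervals were 198 to 226 and 180 to 201 CPM, so the peak cannot be placed in 1 range.

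Dmrta2 had its highest level in the same range in wild-type cells, and its interval there (116 to 136 CPM) also overlapped that at 1000 to 2000 CPM of Krt14 (103 to 119 CPM). From the highest to the lowest Krt14 its wild-type levels were 21.1, 40.6, 66.0, 111, 126, 94.7 and 48.9 CPM, and its heterozygote levels 29.6, 29.3, 60.2, 65.9, 64.2, 49.6 and 30.2 CPM. Foxc1 was at 5.44 CPM in the highest Krt14 range of the wild-type library and between 20.0 and 28.5 CPM in the 4 ranges below 2000 CPM, and heterozygote levels ran from 8.60 to 27.2 CPM. Elf3 instead was higher in each lower range, from 173 to 1565 CPM in wild-type cells, and ran from 239 to 1446 CPM in heterozygous cells, with 204 CPM as its lowest value. Median depth was also highest in the range where Pax6 peaked, at 30021 and 17841 UMIs against 15684 and 10649 UMIs in cells of the highest Krt14, and the part of depth in these levels was not tested.

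**Figure D2:**
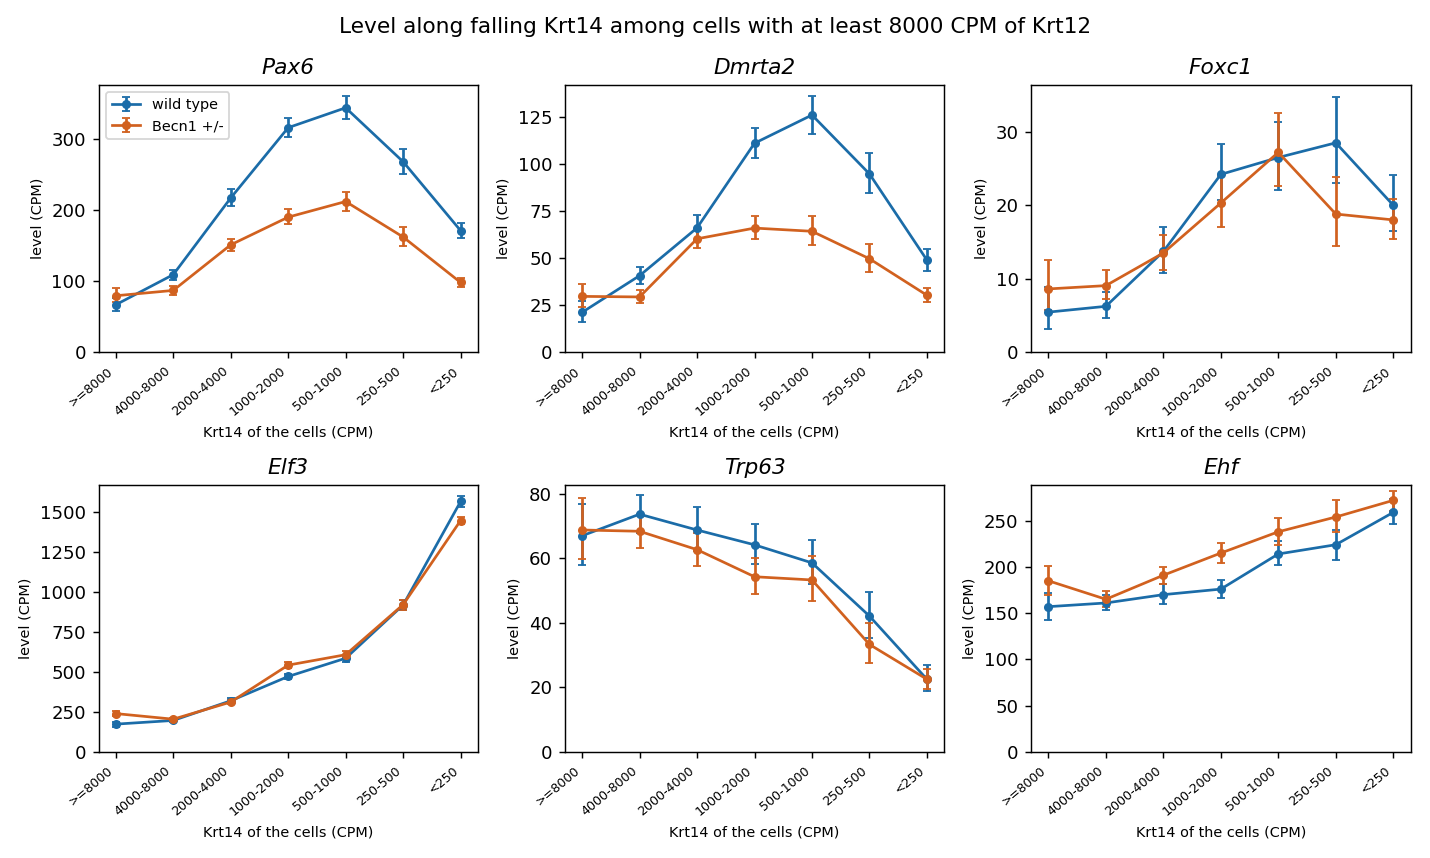
Level of 6 factors (CPM, vertical axis from 0) in cells with at least 8000 CPM of Krt12 outside the surface and stromal gates. Cells are grouped by Krt14 (horizontal axis, falling to the right), in wild type (blue) and heterozygote (orange), with 95% Poisson intervals. Pax6 and Dmrta2 peak at intermediate Krt14, Elf3 and Ehf are highest where Krt14 is lowest, and Trp63 is lowest there.

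Limbal cells were not uniform for these factors. Among them, 187 wild-type and 264 heterozygote cells had less than 8000 CPM of Krt12 and 45 and 102 cells had more. Pax6 was lower in the Krt12-poor cells, at 90.3 against 159 CPM in wild-type cells and 79.7 against 140 CPM in heterozygous cells. Basal cells outside the limbal gate lay between them at 136 and 110 CPM. Because PAX6 maintains Krt12, Pax6 levels are not independent of this split. The same holds for the basal and wing gates, which also use Krt12. Ovol1 was higher in the Krt12-poor cells, at 138 against 57.3 CPM and 117 against 84.6 CPM, and the Krt12-rich limbal cells of the wild-type library thus had the Ovol1 level of other basal cells (56.3 CPM). Foxc1 was at 26.8 against 6.66 CPM in wild-type cells, the latter from 5 UMIs, and at 21.3 against 17.3 CPM in heterozygous cells. Trp63 differed little, at 71.5 against 82.6 CPM and 72.7 against 73.0 CPM.

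The conjunctival keratin Krt4 was at 454 and 235 CPM in limbal cells against 49.5 and 51.7 CPM in basal cells. Limbal cells with at least 200 CPM of Krt4 numbered 66 and 64. In these cells Elf3 was at 327 and 276 CPM against 177 and 169 CPM in limbal cells with less, and Grhl3 at 22.2 and 19.6 CPM against 1.92 and 2.46 CPM. Without them the Grhl3 ratio of limbal over basal cells went from 0.94 to -1.27 in wild-type cells and from -0.22 to -1.43 in heterozygous cells, and that of Elf3 from -0.01 to -0.41 and from -0.44 to -0.61. The Ovol1 ratio was 0.98 and 0.53 and the Foxc1 ratio 1.21 and 0.70 without them. The limit on Krt4 was chosen after the data had been seen.

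Several of the factors, Pax6 and Dmrta2 among them, were higher in cells with more Fos, an immediate early gene known to be induced when tissue is dissociated. Basal cells at or above the median Fos of their library had 201 CPM of Pax6 against 72.0 CPM below it in wild-type cells, and 166 against 56.1 CPM in heterozygous cells. Wing cells had 412 against 169 CPM and 273 against 74.7 CPM. Dmrta2 was at 69.9 against 20.6 CPM and 66.6 against 16.6 CPM in basal cells and at 144 against 58.5 CPM and 87.0 against 24.6 CPM in wing cells. Ovol1 was also higher in the high-Fos cells of both layers, at 72.2 against 40.1 CPM and 85.9 against 55.6 CPM in basal cells and at 92.4 against 63.7 CPM and 105 against 67.4 CPM in wing cells. Foxc1 was at 31.6 against 17.3 CPM and 28.4 against 11.2 CPM in wing cells and at 15.3 against 6.37 CPM in heterozygote basal cells, while in wild-type basal cells (9.84 against 7.34 CPM) the intervals overlapped. Sox9 was higher in wing cells (71.9 against 57.0 CPM and 71.8 against 43.0 CPM) and in heterozygote basal cells (96.0 against 68.8 CPM), and its intervals overlapped in wild-type basal cells (98.2 against 93.9 CPM). The layers differed for Trp63 and Elf3. Trp63 was at 70.1 against 70.9 CPM and 64.9 against 66.7 CPM in basal cells but was higher in the high-Fos wing cells, at 56.1 against 38.6 CPM and 51.8 against 26.8 CPM. Elf3 was higher in the high-Fos basal cells (263 against 202 CPM and 291 against 216 CPM) and lower in the high-Fos wing cells, at 624 against 1227 CPM and 692 against 1189 CPM. Basal Ovol1 did not rise steadily with Fos. Under 100, at 100 to 1000 and at 1000 CPM of Fos or more, it was at 44.6, 38.5 and 109 CPM in wild-type cells. Heterozygote levels in the same ranges were 57.7, 45.9 and 181 CPM.

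Basal cells with at least 2 UMIs over the cycle genes Mki67, Top2a and Ube2c numbered 197 and 323. They had more Pax6, at 190.0 against 115 CPM in wild-type cells and 145 against 100 CPM in heterozygous cells, and more Dmrta2, at 65.6 against 37.0 CPM and 54.4 against 37.6 CPM. Sox9 was at 112 against 89.2 CPM and 109 against 73.0 CPM, and Trp63 at 78.8 against 67.0 CPM and 77.3 against 61.5 CPM. Ovol1 was at 65.2 against 52.6 CPM and 85.5 against 65.8 CPM. Elf3 was at 233 CPM in both groups of the wild-type library and at 225 against 265 CPM in heterozygous cells. Cells of high depth reach 2 UMIs more easily, and the part of depth in this split was not tested.

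Pax6 and Dmrta2 also varied together from cell to cell. Over 521 wild-type and 978 heterozygote wing cells, Pearson's r of log2(CPM + 100) was 0.72 and 0.56, and over 857 and 1551 basal cells 0.60 and 0.50. These points share a library and each cell's depth. With every cell thinned to 5000 UMIs, r was 0.40 and 0.35 in wing cells and 0.34 and 0.36 in basal cells. A Dmrta2 UMI was then found in 40.6% of wild-type wing cells that had a Pax6 UMI and in 15.8% of those that did not, and in 30.8% against 10.1% in heterozygous cells. Thinned basal cells gave 28.7% against 8.87% and 28.7% against 8.08%. Pax6 and Elf3 ran in opposite directions in wing cells, with r of -0.53 and -0.32, and in the same direction in basal cells, with r of 0.27 and 0.26. After thinning these were -0.38 and -0.25 in wing cells and 0.19 and 0.14 in basal cells. Pax6 and Trp63 showed r of 0.01 in basal cells of both libraries and of 0.35 and 0.25 in wing cells, where thinning gave 0.24 and 0.11. Pax6 and Foxc1 had r of 0.44 and 0.31 in wing cells (0.28 and 0.20 thinned) and 0.32 and 0.28 in basal cells (0.23 and 0.20 thinned).

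Between the libraries, the levels of most factors were close within each layer. Among factors with a mean of at least 20 CPM, the differences past 1.5-fold were those of Pax6 and Dmrta2 in wing cells, Ovol1 in surface cells and Elf3 in stromal cells. In wing cells the heterozygote had 180 CPM of Pax6 against 304 CPM, a log2 ratio of -0.76 (-0.82 to -0.69). Dmrta2 stood at 57.6 against 106 CPM, a log2 ratio of -0.88 (-0.99 to -0.76). These were 2 of 9 factors measured, both lower, beside 0.491% of all genes higher and 1.15% lower in wing cells (1.64% in all). The next largest wing ratio was that of Grhl3, at -0.40 (-0.62 to -0.19), and Ehf was slightly higher at 0.19 (0.13 to 0.25). Gate limits were also doubled, except the upper Krt14 limit of wing cells, which stayed at 2000 CPM. The ratios were then -0.35 for Pax6 and -0.40 for Dmrta2, both within 1.5-fold, and Grhl3, at -0.63, was the factor past it. TMM scaling, which shifted wing ratios by 0.20, gave -0.56 and -0.68, and under it Sox9 went from -0.16 to 0.04.

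In basal cells none of 7 factors passed the fold, beside 1.09% of genes higher and 0.41% lower (1.5% in all). Pax6 was at -0.29 (-0.38 to -0.21) and Ovol1 at 0.33 (0.22 to 0.45). None of 8 factors passed in limbal cells, beside 0.919% of genes higher and 1.37% lower (2.29% in all), where Pax6 was at -0.03 (-0.22 to 0.16), Trp63 at -0.01 (-0.24 to 0.22) and Elf3 at -0.31 (-0.44 to -0.17). In surface cells 1 of 3 factors passed, and it was lower, beside 5.9% of genes higher and 6.88% lower (12.8% in all). This was Ovol1, which had 92 UMIs in each library and a log2 ratio of -0.65 (-1.08 to -0.22), which TMM scaling moved to -0.54, within 1.5-fold. Surface Elf3 was at -0.54 (-0.61 to -0.46). In stromal cells 1 of 3 factors passed, and it was higher, beside 0.849% of genes higher and 1.07% lower (1.92% in all). This was Elf3, at 0.70 (0.42 to 0.99), where its level could not be told apart from background. The stromal percentage of each of the 8 epithelial genes was also higher in heterozygous cells, and the part of free RNA in the Elf3 ratio was not tested.

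**Figure D3:**
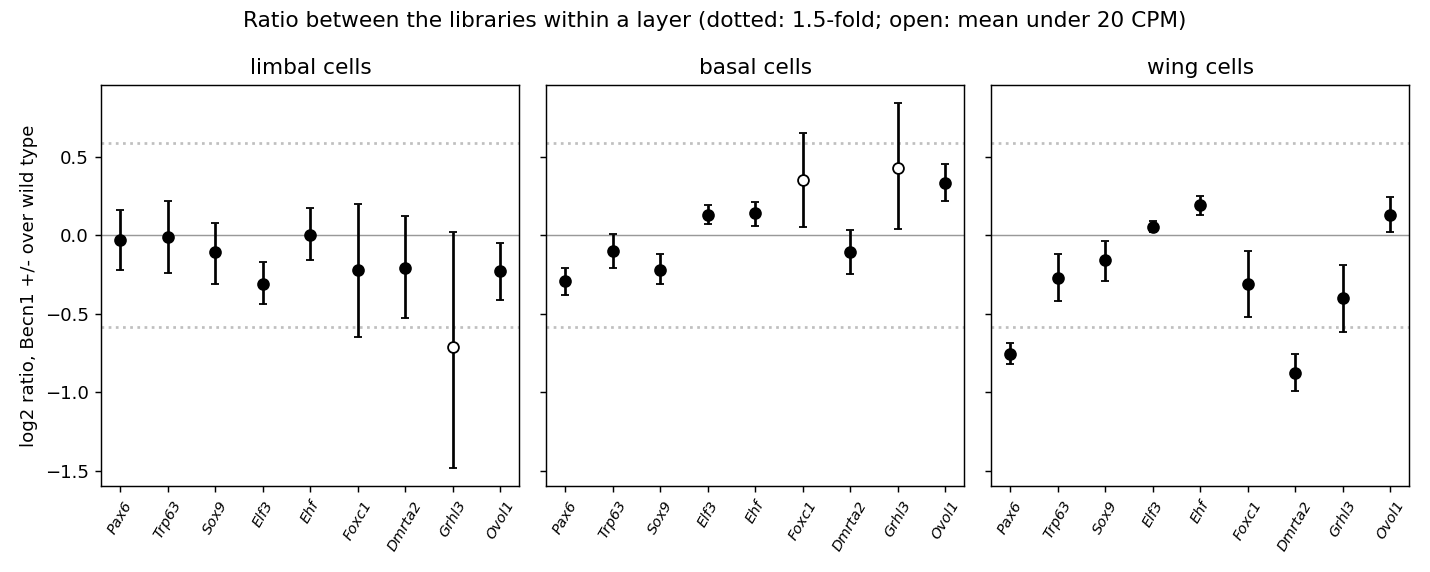
Log2 ratio of the heterozygous library over the wild-type library (vertical axis) for each factor (horizontal axis) in limbal, basal and wing cells, with exact 95% intervals; dotted lines mark 1.5-fold and open points have a mean under 20 CPM. Pax6 and Dmrta2 in wing cells lie below the lower dotted line.

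The wing difference in Pax6 and Dmrta2 was set beside Fos, whose median in wing cells was 276 CPM in wild-type cells and 144 CPM in heterozygous cells. In wing cells under 100 CPM of Fos the log2 ratio of heterozygote over wild type was -0.82 (-1.01 to -0.63) for Pax6 and -1.05 (-1.39 to -0.71) for Dmrta2. Between 100 and 1000 CPM of Fos it was -0.82 (-0.92 to -0.73) and -0.91 (-1.08 to -0.74). In wing cells with at least 1000 CPM of Fos, 116 and 170 in number, it was -0.18 (-0.28 to -0.08) and -0.32 (-0.50 to -0.14). In basal cells the Pax6 ratios in the 3 Fos ranges were -0.29, 0.18 and -0.06 and those of Dmrta2 -0.18, 0.24 and 0.28. The ranges were chosen after the data had been seen, and the part of Fos in the difference between libraries was not tested.

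**Figure D4:**
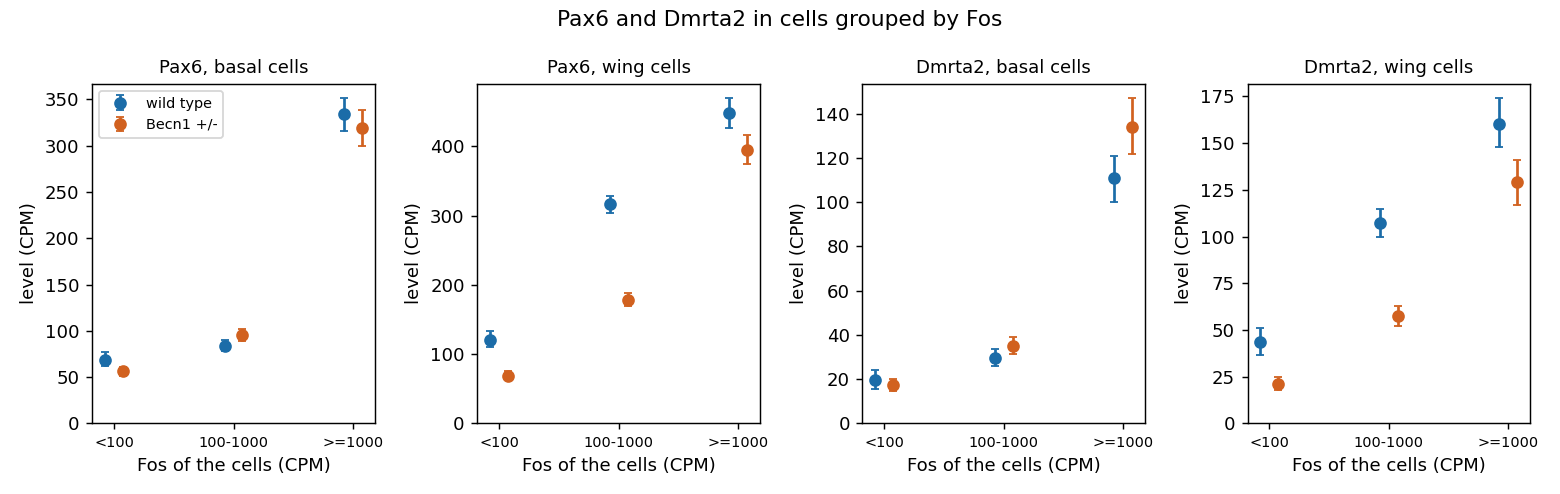
Level of Pax6 and Dmrta2 (CPM, vertical axis from 0) in basal and wing cells grouped by Fos (horizontal axis), wild type blue and heterozygote orange, with 95% Poisson intervals. Both factors are highest in the cells with at least 1000 CPM of Fos, and the libraries lie closest in wing cells there.

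Along Krt14, Pax6 was lower in heterozygous cells in 6 of 7 ranges, with log2 ratios from -0.80 (-0.93 to -0.67) in the lowest range to 0.25 (-0.02 to 0.53) in the highest. Dmrta2 was also lower in 6 of 7 ranges, from -0.97 (-1.18 to -0.76) at 500 to 1000 CPM of Krt14 to 0.49 (0.01 to 0.98) in the highest range. Sox9 was lower in 7 of 7 ranges, by small ratios of -0.38 to -0.08, and Ehf higher in 7 of 7, by 0.04 to 0.29. The interval of Sox9 included 0 at 250 to 500 CPM (-0.51 to 0.01) and in the highest range (-0.32 to 0.15). That of Ehf did so in the lowest range (-0.02 to 0.16) and at 4000 to 8000 CPM (-0.07 to 0.14). All ranges come from the same 2 libraries and are not repeats. By rising Fos range, Sox9 ratios in basal cells were -0.39, -0.33 and 0.43 (0.24 to 0.62). Over the 7 Krt14 ranges, Elf3 ratios ran from -0.11 to 0.47.

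Genes known to depend on these factors were described from lists over both libraries, by the same fold and the same lower limit on the mean. Of 9 barrier genes tied to Grhl and ETS factors and measured in wing and basal cells, 9 were higher in wing cells in both libraries, beside 17.3% and 16.6% of all genes higher in each. Evpl and Ppl, plakins of the cornified envelope, had wing over basal ratios of 2.32 and 2.16 and of 2.21 and 2.08, Sprr1a, an envelope precursor, 2.08 and 1.67, and the serine protease Prss8 1.92 and 1.42. Their median ratio was 1.34 and 1.28 against a median of all genes of 0.02 and -0.03. Of 11 p63-dependent basal genes, 5 were lower and 1 higher in wing cells in both libraries, beside 13.8% and 16.4% of all genes lower and 17.3% and 16.6% higher in each. The basal and wing gates are divided by Krt14, itself a keratin of the basal layer, so this comparison is not independent of the gating. Lamb3, a laminin chain of the basement membrane, was at 13.0 against 127 CPM in wild-type cells, a log2 ratio of -3.28, and at -3.36 in heterozygous cells. Bcam, a laminin receptor, was at -1.42 and -1.82, Itga3 at -1.09 and -1.54 and Itgb4 at -0.96 and -1.51, while the higher gene was Krt5, the partner of Krt14, at 0.76 and 0.73, named after its values were seen.

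Of 4 measured genes known to depend on Pax6 in the cornea, 3 were lower in limbal than in basal cells in both libraries and none higher, beside 8.93% and 7.55% of all genes lower and 10.3% and 8.6% higher in each. The basal gate requires Krt12, itself a gene that PAX6 maintains, and the limbal gate does not, so this comparison is not independent of the gating. Aldh3a1, a crystallin of the corneal epithelium, was at 3476 against 15284 CPM in wild-type cells, a log2 ratio of -2.14, and at -1.57 in heterozygous cells. Tkt was at -1.81 and -1.27 and Aldh1a1 at -1.27 and -1.46. Stromal over basal, Aldh1a1 was higher (1.35 and 1.61), although Pax6 was much lower there. Aldh3a1 (-2.50 and -2.09) and Tkt (-2.60 and -2.21) were lower, and Clu stayed within 1.5-fold (-0.37 and 0.05). In wing cells, where Pax6 was highest, the 4 genes went different ways relative to basal cells. Tkt was lower (-0.67 and -0.72), Aldh3a1 was lower within 1.5-fold (-0.44 and -0.33), Clu was higher within 1.5-fold (0.35 and 0.22), and Aldh1a1 was higher (0.52 and 0.65), past 1.5-fold in the heterozygote. Between the libraries none of these 4 genes passed the fold in wing cells, and their median ratio was -0.16.

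Partners and paralogs of the factors were mostly below the lower limit, and 5 of 22 could be measured in wing and basal cells of both libraries. Grhl1, a paralog of Grhl3, was higher in wing cells at 1.36 and 1.76, and Trp53, of the same family as Trp63, was lower at -1.31 and -1.48, while the other 3 did not pass the fold in the same direction in both. Of 14 other surface epithelial factors, 1 was higher and 5 were lower in wing than in basal cells in both libraries, beside 17.3% and 16.6% of all genes higher and 13.8% and 16.4% lower. Klf4, a differentiation factor, was the higher one at 1.18 and 1.20, and Snai2 (-2.23 and -1.97), Cebpb (-1.09 and -0.81) and Id3 (-0.80 and -0.96) were among the lower. In limbal over basal cells 3 of 15 were higher in both libraries, namely Id1 (2.05 and 1.83), Id3 (1.12 and 1.18) and Nfib (1.07 and 0.88), and 1 was lower, Snai2 (-1.26 and -0.65), beside 10.3% and 8.6% of all genes higher and 8.93% and 7.55% lower. Of 7 neural crest and stromal factors measured, 7 were higher in stromal than in basal cells in both libraries, beside 33.0% and 32.5% of all genes. Twist1, Twist2, Prrx1, Tfap2b and Snai1 among them reached the lower limit on the mean only through their stromal level. The count was thus largely set by that limit. Twist1 was at 93.4 and 88.0 CPM in stromal and 0.294 and 0.272 CPM in basal cells. Osr2 was higher in limbal than in basal cells at 3.15 and 2.37.

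For each factor the genes of most similar pattern were ranked by Pearson's r of log2(CPM + 10) over 10 sums, 5 layers in each of 2 libraries, among 3777 genes. Pax6 was closest to Cs (0.994), Pkp1 (0.991) and Reep4 (0.990), and Dmrta2 to Pkp1, Cs and Dsp (0.985 each). Trp63 was closest to Pdlim1 (0.996), Itga6 (0.994) and Micall1 (0.992), and Sox9 to Igsf3 (0.996), Rps12-ps3 (0.996) and Rpl39 (0.995). Elf3 was closest to Chmp2b, Pdzk1ip1 and Zfp706 (0.993 each), and Ehf to Spint2 (0.997), Crb3 (0.996) and Rab25 (0.992). Ovol1 was closest to Cbr2 (0.988), Cxadr and Lsr (0.979 each), and Grhl3 to Stfa1 (0.974), Slk (0.964) and Acadl (0.963). Foxc1 had no gene as close, its first 3 being Ntan1 (0.960), Mbnl2 (0.951) and Hspa1a (0.939). Sums of 1 library share cells in overlapping gates and the sums are not independent.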

How the data were processed

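For 2 libraries the authors deposited matrices of UMI counts by gene and barcode, made with Cell Ranger 2.1.1 on mm10 per the submitters' processing notes. Annotation, strand setting and cell calling: not given in the sources used here. Scrublet in scanpy 1.11.5 scored each library, and the highest scores were removed at 0.8% per 1000 barcodes (51 and 213 barcodes). Counts were summed per gate and scaled to CPM. A ratio of a layer over basal or wing cells used the basal or wing cells outside that layer's gate. Ratios had 0.5 added to each count and exact conditional intervals, levels Poisson and shares binomial intervals. The least deep barcodes had 8089 and 5430 UMIs. TMM factors came from edgeR 4.0.16. The interval calculation was tested on simulated data. Named genes were all 9 factors, up to 4 genes per list with the largest ratio of one sign in both libraries, and the 3 most similar genes per factor. The Krt14, Fos and Krt4 groups were added after the data had been seen. The members and lists were chosen with earlier results of these data known.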

Additional observations from a re-analysis of the deposited data

Results flagged for a closer look

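Grhl3 in limbal over basal cells had a log2 ratio of 0.94 in wild-type and -0.22 in heterozygous cells, of opposite sign in the only library of each genotype. The heterozygote value was within counting error of 0 (-0.89 to 0.36). The ratios rest on 41 and 27 limbal UMIs, and the difference was not tested. Without limbal cells of at least 200 CPM of Krt4, a limit chosen after seeing the data, both were negative, at -1.27 and -1.43. Ovol1 in surface over basal cells had a log2 ratio of 0.10 in wild-type and -0.88 in heterozygous cells, from 92 surface UMIs in each, and this difference was not tested either.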

How the results depend on the processing

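No paired analysis was possible because each genotype has 1 library. Values below are numbers of factors past 1.5-fold, with the reported number in brackets, and the cause was not tested where a number or sign changed. Counted once per alternative, the sign of a log2 ratio past 1.5-fold as reported changed 12 times, each of which is given, and that of a smaller ratio 40 times, of which some are given. Without doublet removal limbal over basal gave 0 (1) in heterozygous cells, and signs changed for Trp63 in surface cells between libraries (-0.69) and, in stromal cells, for Pax6 (0.48) and Grhl3 (0.45), while the smaller stromal ratios of Trp63 and Dmrta2 became 1.41 and 0.42. Under that setting surface over basal ratios of wild-type cells were smaller in size for Trp63 (-2.59), Pax6 (-1.37) and Dmrta2 (-0.99). In heterozygous cells they were -3.18, -1.93 and -2.17. With cells of 1 gate only, limbal over basal gave 2 (1) in wild-type cells and stromal Pax6 between libraries was 0.04. Halving and doubling of gate limits left the upper Krt14 limit of wing cells at 2000 CPM. Gate limits halved gave 0 (1) for limbal over basal in heterozygous cells and 1 (0) between libraries in limbal cells. Gate limits doubled gave 6 (3) and 5 (3) for wing over basal in wild-type and heterozygous cells, 2 (1) for limbal over basal in heterozygous cells and 1 (2) between libraries in wing cells, where the 1 was Grhl3 (-0.63), not Pax6 or Dmrta2. Means of single-cell CPM gave 6 (3) for wing over basal in wild-type cells, 0 (1) between libraries in surface cells, and -0.09 for surface Sox9. TMM scaling gave 5 (3) for wing over basal and 8 (5) for surface over wing in wild-type cells, 0 (1) for limbal over basal in heterozygous cells, and between libraries 1 (2) in wing and 0 (1) in surface cells. Under it the sign changed, surface over wing, for Foxc1 (0.62 and 0.70), and in heterozygous cells for Ehf (0.72) and Ovol1 (0.21), and, surface over basal, for Ovol1 (0.55). Smaller ratios that it turned included, surface over wing, wild-type Ehf (1.08) and Ovol1 (1.08) and Grhl3 in both libraries (1.43 and 0.90), and, surface over basal, heterozygote Ehf (1.34). A 2-fold limit gave 0 (1) for limbal over basal and 1 (3) for wing over basal in heterozygous cells, and between libraries 0 in wing (2), surface (1) and stromal (1) cells. With no lower limit on the mean, limbal over basal gave 3 (1) and 2 (1), wing over basal 5 (3) and 5 (3), and the libraries differed for 1 (0) in limbal, 4 (1) in surface and 4 (1) in stromal cells. A mean of at least 100 CPM gave 0 (1) for limbal over basal in both, 1 (5) and 1 (6) for surface over basal, 1 (8) and 1 (8) for stromal over basal, 2 (5) and 1 (6) for surface over wing, and between libraries 1 (2) in wing and 0 (1) in surface and stromal cells, where fewer factors were measured. Among limbal cells under 200 CPM of Krt4, chosen after seeing the data, Grhl3 was at -1.27 over basal in wild-type cells and at 0.30 between libraries. A common lower limit of 8089 UMIs changed none of the 15 numbers. Thinning moved 85 of 90 shares of cells beyond their interval. Sums of 1 to 36 UMIs for Trp63, Sox9, Grhl3, Dmrta2 and Foxc1 in surface cells limit what depth can show there.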
